A study of Mus musculus with 16 samples.

Results

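The cytosolic ribosomal protein genes were followed in RNA-seq of mouse small intestine with and without Cul4b. They were taken as the protein coding rows whose symbol starts with Rpl or Rps and a number, together with Rplp0, Rplp1, Rplp2 and Rpsa. The S6 kinase genes and symbols that contain "-ps" were left out. This gave 86 genes of the 52525 that are listed in all 3 count tables, of which 52 carry a large subunit (Rpl) symbol and 34 a small subunit (Rps) symbol. The symbol rule also took in Rps19bp1, which encodes a binding protein of Rps19 and not a ribosomal protein, and Rps27rt, a retrotransposed copy of Rps27. All samples came from C57BL/6 mice. The crypt experiment compared 4 libraries of freshly isolated crypts from WT mice (Cul4b fn/Y) with 4 from KO-IEC mice, which carry pVillin-Cre on the same conditional allele, so that the deletion follows the villin promoter in the intestinal epithelium. A second experiment compared 2 organoid libraries from WT with 2 from KO-IEC mice. The third compared 2 WT organoid libraries with 2 KO-CAG libraries, where a CreERT2 under the broadly active CAG promoter deletes Cul4b in cells given 4-hydroxytamoxifen. Whether the WT organoids of that experiment received the drug is not given in the sources used here, and the labels give no ages. The study calls the libraries biological replicates, but the labels do not tie them to separate animals or cultures, so the p-values measure the spread between these samples.

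Ribosomal proteins are assembled with ribosomal RNA in fixed proportions, and growing cells devote a large share of their mRNA to them. Most of these mRNAs start with a terminal oligopyrimidine (TOP) tract, a run of C and T at the very first bases through which mTORC1 and its target Larp1 control their translation and stability. In the intestine, ribosome production is known to be highest in the dividing cells of the crypt, and it declines as cells become enterocytes.

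The annotated start sites of the members were searched for such runs. RefSeq windows around the annotated start (build GRCm38.p6) were matched for 66 of the 86 members, with 78 windows in all. A run of at least 5 bases that were all C or T, read on the strand of the gene and starting within 10 bases of the annotated start, was present in 53.8% of the member windows and in 38.0% of the 32851 windows of all genes. Runs of at least 10 bases, a length chosen after the values were seen, were present in 19.2% and 3.99%. A match describes the letters at the annotated start and is not evidence of a used start site. The windows below belong to genes on which later results turn. Each line gives 30 bases of GRCm38.p6, 10 of them before the annotated start, and the capitals mark the longest C or T run whose first base lies within 10 bases of that start. A run that begins farther upstream is not counted, such as the one that leads the line of Rps27l, and where runs are equally long, as at Rps27rt, the first is marked.
Rps27, chr3:90213629-90213658, minus strand: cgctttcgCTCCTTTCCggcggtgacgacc
Rps27rt, chr9:114982720-114982749, minus strand: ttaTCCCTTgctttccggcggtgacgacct
Rps27l, chr9:66946076-66946105, plus strand: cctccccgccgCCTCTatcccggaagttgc
Rpl22l1, chr3:28805498-28805527, plus strand: gcgcaagcccgTTCTCTTCCCacggctgca
Rpl12, chr2:32961702-32961731, plus strand: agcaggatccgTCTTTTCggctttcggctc
Rps15, chr10:80292421-80292450, plus strand: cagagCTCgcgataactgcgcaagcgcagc
Rpl7l1, chr17:46782637-46782666, minus strand: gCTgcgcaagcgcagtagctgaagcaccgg
Rps19bp1, chr15:80264287-80264316, minus strand: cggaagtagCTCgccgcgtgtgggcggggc
The run was 9 bases long at Rps27, 10 at Rpl22l1 and 7 at Rpl12. It was 3 bases long at Rps15 and at Rps19bp1, and 2 at Rpl7l1.

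The libraries held 7348191 to 16881395 counts on genes, so that 3 counts corresponded to 0.178 to 0.408 CPM, the count scaled to library size (all other CPM values also carry edgeR's TMM factors). Cul4b fell in each model, with log2 fold changes of -4.56 (crypts), -5.50 (KO-IEC organoids) and -4.02 (KO-CAG organoids) (adjusted p = 0.000169, 0.0311 and 1.93e-06, edgeR). Epcam, which marks epithelium, was at 998 to 1619 CPM in all 16 libraries. A pair of features moved with genotype in the crypts and return beside the results. The mitochondrial ribosomal RNAs were at 18.9 to 25.2 CPM in WT replicate 1 and KO replicates 1, 2 and 3. They were at 834 and 1078 CPM in WT and KO replicates 4, and at 2840 and 2873 CPM in WT replicates 2 and 3. The enterocyte markers were higher in the KO crypts, although none of the 10 passed the test there. An unadjusted p under 0.05 was seen for 9 of them and for 4287 of the 13427 genes tested. The summed level of the enterocyte markers per kilobase was 1499 to 6999 CPM in WT and 5845 to 12521 CPM in KO crypts. Stem cell markers summed to 955 to 1489 CPM per kb in WT and 606 to 958 in KO, with 3 of 8 called lower. All 8 proliferation markers had negative fold changes, with 1 called lower. Of all genes 2.66% were called lower. These marker calls were lost without WT replicate 1, 2 or 3 or without KO replicate 2 or 3, where only Cul4b was called lower. Immune markers, at most 84.5 CPM per kb in WT, reached 264 in KO, and none of the 9 passed the test (2 had an unadjusted p under 0.05).

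In WT, ribosomal protein mRNAs were among the abundant transcripts of all 3 models. The median tested member was at 646 CPM in crypts, 727 CPM in KO-IEC experiment organoids and 959 CPM in KO-CAG experiment organoids. Per kilobase of gene length, Rplp1, an acidic protein of the stalk that recruits elongation factors, had the highest WT level in every experiment, at 3170.4, 3249.8 and 3098 CPM per kb (crypts, KO-IEC experiment and KO-CAG experiment). Rpl8 and the stalk scaffold Rplp0 followed in crypts at 1589 and 1456 CPM per kb. In the organoids the next were Rplp0 (1767) and Rps3a1 (1599) in the KO-IEC experiment, and Rpl36 (2096) and Rps3a1 (1986) in the KO-CAG experiment. At the other end stood Rpl24 and Rpl36al, which were under 10 CPM in each experiment.

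All members together took a smaller share of the counts in every KO library than in any WT library of the same experiment. In the crypts the share was 6.25%, 6.32%, 6.66% and 5.86% in WT replicates 1 to 4 and 4.85%, 3.78%, 2.91% and 4.31% in KO-IEC replicates 1 to 4. It was 6.89% and 6.82% in WT organoids against 5.64% and 5.22% in KO-IEC organoids, and 8.80% and 8.07% against 5.32% and 5.90% in KO-CAG organoids. KO crypt replicate 3 had the lowest share of all 16 libraries. It also had the highest mean level of enterocyte markers in its experiment, at 10.64 log2 CPM. KO replicate 1, with the highest share of the KO crypts, was at 9.40 log2 CPM. Other crypt libraries broke this order. KO replicate 4, at 10.46 log2 CPM, had a larger share than KO replicate 2, at 10.06 log2 CPM. WT replicate 4, at 9.64 log2 CPM, had a larger share than KO replicate 1. A link between the share and these markers was not tested. In bulk RNA, fewer cells of a kind rich in these mRNAs and less of the mRNA in each cell cannot be told apart.

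**Figure D1:**
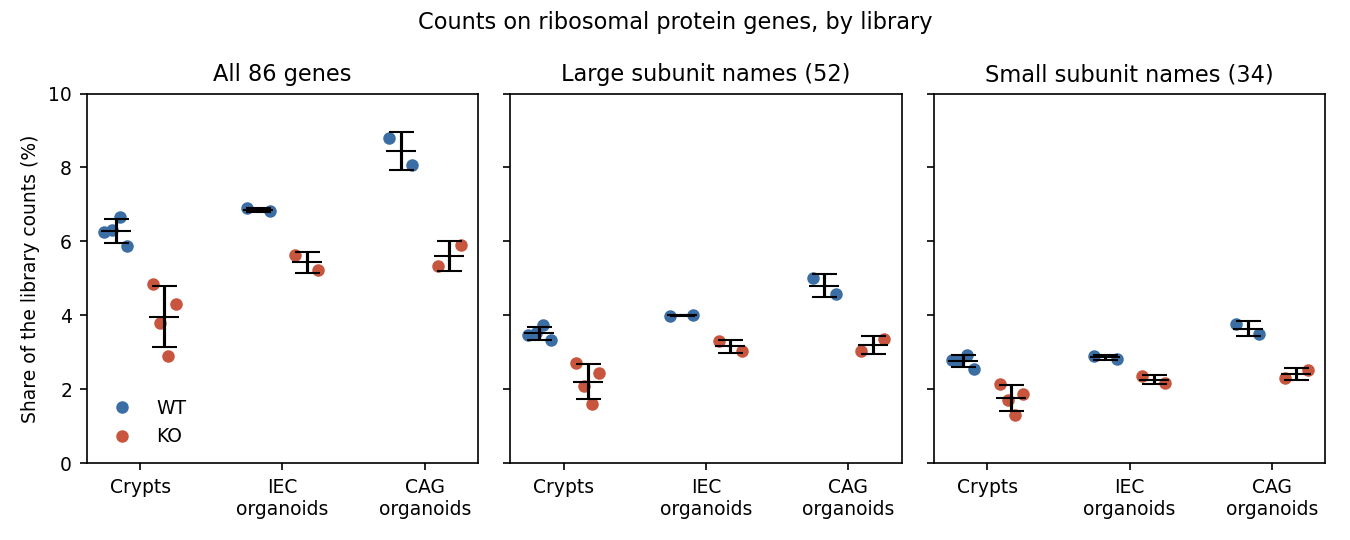
Share of the counts of each library, in percent, on all 86 ribosomal protein genes, the 52 large subunit symbols and the 34 small subunit symbols. Points are libraries (blue WT, red KO), and the bars give the mean and SD of each group; all KO libraries lie below all WT libraries of their experiment, with the widest KO spread in the crypts (2.91% to 4.85%).

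In KO-IEC crypts, 37 of the 83 tested members were lower than in WT at an adjusted p under 0.05 and none was higher (edgeR's quasi-likelihood test, p-values adjusted by Benjamini-Hochberg over 13427 genes). Of all tested genes 2.66% were called lower and 4.3% higher. The median log2 fold change of the members was -0.56, a level that fell by 32.1%, against a median of -0.01 over all genes. A negative fold change was seen in 82 members (51.1% of all genes), and 71 had an unadjusted p under 0.05 (4287 of all genes). The 4 KO libraries all lay below all 4 WT libraries for 63 members, while this was so for 8.79% of all genes. The adjusted p of the 37 called members lay between 0.0406 and 0.0499, and their calls depended on single libraries. No member was called without WT replicate 1, 2 or 3 or without KO replicate 2 or 3, 17 were called without KO replicate 4, and 60 without KO replicate 1. In the first 5 of these fits Cul4b was the only gene called lower among all tested, so nearly every gene lost its call. The fits without KO replicate 4 and without KO replicate 1 called 1.41% and 7.87% of all genes lower. Over these fits the median log2 fold change stayed between -0.66 and -0.44. With a covariate for the 3 classes of mitochondrial ribosomal RNA level no member was called (median -0.54), nor with one for the enterocyte marker level (median -0.42). In both of these fits 0.00745% of all genes were called lower. DESeq2's Wald test called 66 members lower, and 7.05% of all genes. Within the class of low mitochondrial ribosomal RNA (1 WT and 3 KO libraries) the median difference was -0.62, and within the middle class (1 of each) it was -0.42. The part of either feature in the result was not tested further.

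Short genes as a whole also lay lower in these crypts. The 2252 genes that are no members and are shorter than the median member (1739 bases) had a median log2 fold change of -0.17 in the crypts, with -0.12 and -0.04 in the corresponding sets of the KO-IEC and KO-CAG organoids. After a loess correction of the fold changes for gene length the member medians were -0.54, -0.21 and -0.63.

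The stalk genes were among the members called lower in the crypts. Rplp1 was at 1615, 1557, 1695 and 1461 CPM in WT replicates 1 to 4 and at 1155, 857, 735 and 1069 CPM in KO replicates 1 to 4. Every KO value lay below the lowest WT value, and KO replicate 3 was the lowest. Its log2 fold change was -0.73 (SE 0.16, adjusted p = 0.0431, edgeR). Rplp0, the protein that anchors the stalk to the large subunit, was at 2538, 2489, 2643 and 1995 CPM in WT and 1822, 1639, 1284 and 1479 CPM in KO, a log2 fold change of -0.63 (SE 0.15, adjusted p = 0.0467, edgeR). The groups did not overlap here either. Rplp0 kept an adjusted p under 0.05 in 11 of 20 alternatives and Rplp1 in 12 of 20 (0.000591 to 0.651 and 0.000271 to 0.638, edgeR and DESeq2).

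Rps15 and Rpsa had the lowest fold changes of the small subunit genes in the crypts. Rps15 encodes a protein of the head of the small subunit. It was at 934, 889, 951 and 773 CPM in WT replicates 1 to 4 and at 640.1, 455, 371 and 548 CPM in KO replicates 1 to 4. This was a log2 fold change of -0.82 (SE 0.17, adjusted p = 0.0413, edgeR), with no overlap of the groups. Rpsa, a small subunit protein also known as the laminin receptor, was at 1919, 1871, 1998 and 1387 CPM in WT and 1301, 1058, 823 and 1021 CPM in KO. Its fold change was -0.77 on the log2 scale (SE 0.18, adjusted p = 0.0450, edgeR). WT replicate 4 was the lowest WT library for both genes. Rps15 passed in 12 and Rpsa in 11 of 20 alternatives (adjusted p 0.000265 to 0.638 and 0.000457 to 0.644).

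Among large subunit members, Rpl21 was at 246, 212, 304 and 156 CPM in WT and at 163, 109, 91.8 and 181 CPM in KO crypts. WT replicate 4 lay below KO replicates 1 and 4, and the log2 fold change of -0.75 did not pass the test (adjusted p = 0.0847, edgeR). Rpl7a, at 295, 209, 222 and 178 CPM in WT and 213, 201, 163 and 128 CPM in KO, had one of the smaller differences (-0.36, adjusted p = 0.231, edgeR). The groups overlapped for both. The small subunit gene Rps12 also overlapped, at 420.0, 418, 439 and 293 CPM in WT and 346, 262, 203 and 408 CPM in KO (-0.37, adjusted p = 0.276, edgeR). KO replicate 4 lay close to 3 of the WT libraries, and WT replicate 4 lay within the range of KO. With the counts of the genes that share its sequence added, a sum chosen after the data were seen, Rps12 was at 928, 997, 993 and 897 CPM in WT and at 813, 636, 464 and 743 CPM in KO, and the groups did not overlap. The summed counts of Rpl21 and its copies did not overlap either, with log2 ratios of the group means of -0.59 for Rpl21 and -0.52 for Rps12. Those of Rpl7a and its copies still overlapped, with WT replicate 4 at 288 CPM and KO replicate 1 at 320 CPM. No summed row of these genes passed the test (adjusted p = 0.0533 for Rpl21, 0.0964 for Rpl7a and 0.0772 for Rps12, edgeR).

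Rpl12, which binds the ribosome at the base of the stalk, had the lowest fold change of all members in the crypts and the widest spread. It was at 41.9, 737, 786 and 717 CPM in WT replicates 1 to 4 and at 41.4, 28.5, 25.5 and 522 CPM in KO replicates 1 to 4. WT replicate 1 and KO replicates 1, 2 and 3 were thus low and the other 4 libraries high, whatever the genotype. These are the libraries with little mitochondrial ribosomal RNA. The log2 fold change of -1.88 had an SE of 1.12 (adjusted p = 0.272, edgeR). With the covariate for mitochondrial ribosomal RNA it was -0.42, and it was -4.16 without KO replicate 4, where the adjusted p was 0.0478. In the other 19 of 20 alternatives it did not pass (adjusted p up to 0.766). Rpl12 shares 46.8% of its 100-base windows with 8 other annotated genes. The most counted of these, the processed pseudogene Gm10275, followed the same split, at 0.212 to 1.61 CPM in the 4 low libraries and at 149 to 254 CPM in the others. In the organoids Rpl12 showed no such split. It was at 1045 and 1066 CPM in WT and 840.2 and 841 CPM in KO-IEC organoids, and at 1481 and 1369 CPM in WT and 845 and 942 CPM in KO-CAG organoids.

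**Figure D2:**
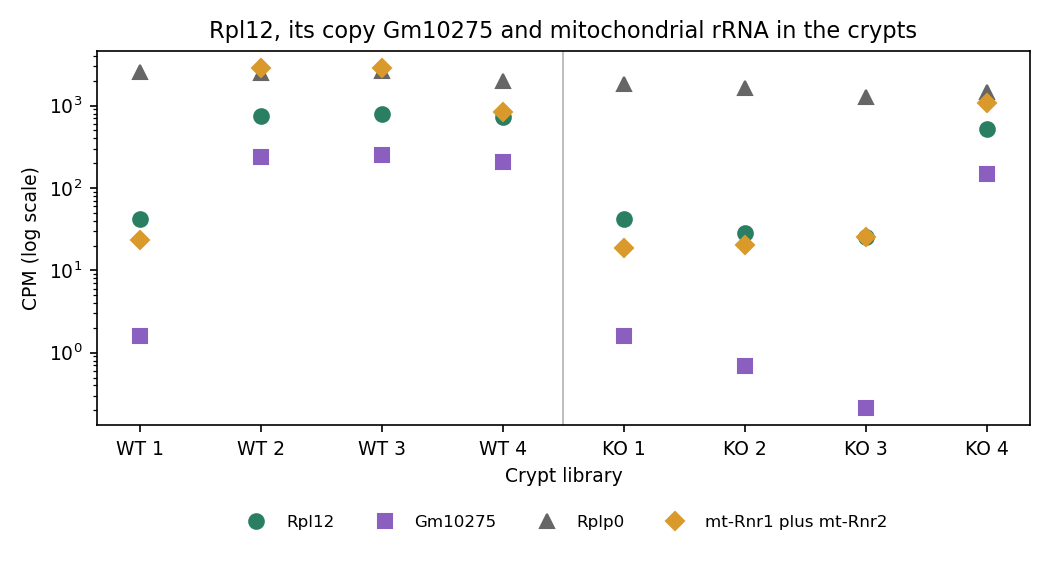
CPM on a log axis of Rpl12 (green circles), its processed copy Gm10275 (purple squares), Rplp0 (grey triangles) and the sum of the mitochondrial ribosomal RNAs (orange diamonds) in each of the 8 crypt libraries. Rpl12 is at 25.5 to 41.9 CPM in the 4 libraries with mitochondrial ribosomal RNA at 18.9 to 25.2 CPM and at 522 to 786 CPM in the other 4, while Rplp0 stays above 1000 CPM in each.

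In KO-IEC organoids no member passed the test by edgeR or by DESeq2's Wald test. Of the 83 members 4 had an unadjusted p under 0.05, as did 650 of the 13938 genes tested. The only gene called lower among the 13938 tested was Cul4b (0.00717%). The median log2 fold change of the members was -0.29, a level that fell by 18.3%, against -0.01 over all genes, and 81 members had a negative fold change (51.2% of all genes). Both KO libraries lay below both WT libraries for 73 members, against 19.4% of all genes. The median was -0.25 to -0.34 when 1 library was left out. Stem cell markers moved alongside, with a sum of 889 to 1308 CPM per kb in WT and 94.2 to 549 CPM per kb in KO. None of these 8 passed the test, and 3 had an unadjusted p under 0.05. All 8 proliferation markers also had negative fold changes, and none passed the test. The part of both marker sets in the members' values was not tested.

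The member with the lowest fold change in these organoids was Rps27a, whose product is ubiquitin fused to a small subunit protein. It was at 676 and 239 CPM in WT replicates 1 and 2 and at 174 and 166 CPM in KO, with WT replicate 1 far above the rest. The log2 fold change of -1.43 (SE 0.50, adjusted p = 0.856, edgeR) was -0.49 without WT replicate 1. Rpl21 was at 154 and 166 CPM in WT and 56.0 and 99.1 CPM in KO (-1.05, adjusted p = 0.856, edgeR). Rps27a and Rpl21 were the 2 members that passed when no filter on low counts was used (adjusted p = 5.99e-07 and 0.00175, edgeR). In that fit 0.477% of all genes were called lower. Rpl7a, at 235 and 437 CPM in WT and 216 and 219.5 CPM in KO, followed with -0.62. Rps18, a small subunit protein, was at 1204 and 1227 CPM in WT and 785 and 1044 CPM in KO, a log2 fold change of -0.41. The KO values lay below WT in each of these genes. At the other end, Rps27rt (0.05), Rps12 (-0.09) and Rpl7l1 (-0.11) differed least among the well counted members. The barely counted Rpl36al had a positive value of 0.53 with an SE of 0.66.

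In KO-CAG organoids 70 of the 83 tested members fell and 1, Rps27l, rose at an adjusted p under 0.05 (edgeR). Of the 13598 genes tested 13.4% were called lower and 18.1% higher. The median log2 fold change was -0.56, a level that fell by 32.1%, against a median of 0.00 over all genes, and 78 members had a negative fold change (49.9% of all genes). Both KO libraries lay below both WT libraries for 74 members, and for 34.2% of all genes. With 1 library left out, the median of the members ran from -0.65 to -0.50. In a fit that shares its estimate of the spread over all 16 libraries, 12 members were called lower, with 1.24% of all genes. At a threshold of at least 2-fold, 2 members remained, Rpl21 and Rpl7a, where 304 of the 13598 genes tested were called lower. Markers of several mature lineages moved with these genes. In KO-CAG 9 of 10 enterocyte, 6 of 7 Paneth, 6 of 7 goblet and all 6 enteroendocrine markers were higher. None of the 3 tuft markers was called, and 1 of them had a negative fold change. Of the 8 stem cell markers 6 had a negative fold change and 4 were called lower. Of the 8 proliferation markers 7 had a negative fold change and 2 were called lower. The enterocyte markers summed to 2900 to 3124 CPM per kb in WT and 7170 to 9235 CPM per kb in KO. The part of cell makeup in the fall was not tested.

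**Figure D3:**
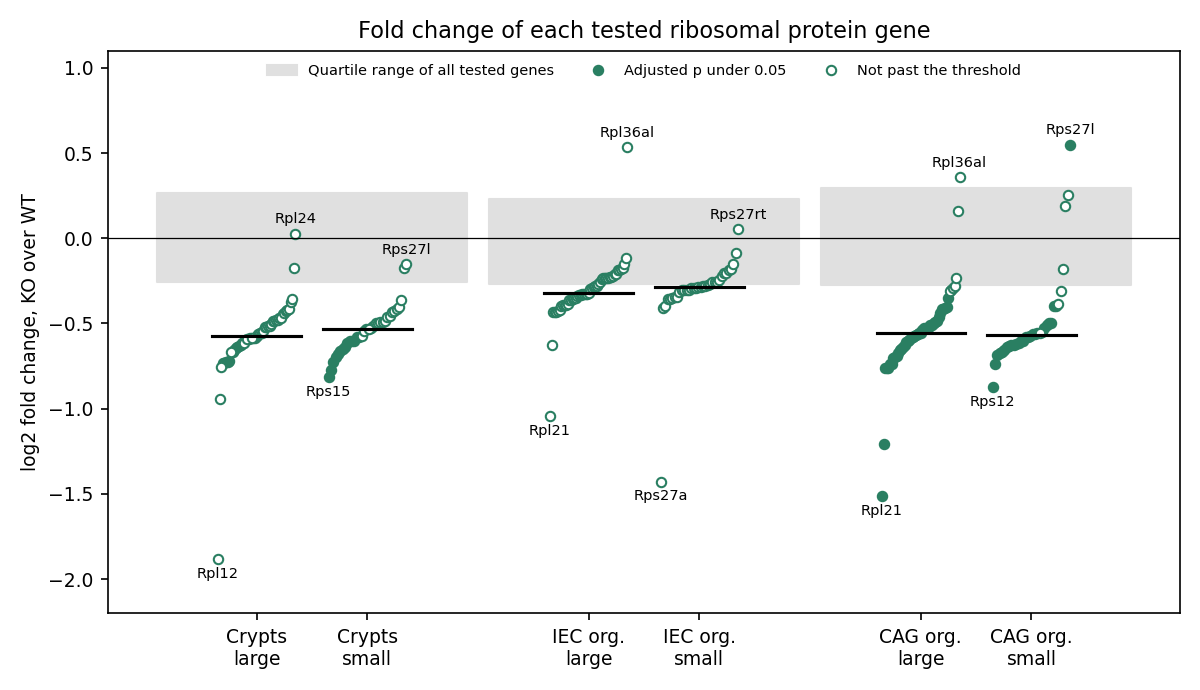
Log2 fold change (KO over WT) of each of the 83 tested members in the 3 models, large and small subunit side by side. Each point is a gene, filled where the adjusted p is under 0.05, black lines are medians and grey bands span the quartiles of all tested genes; nearly all members lie at or below the band in crypts and KO-CAG organoids, and Rps27l is the only filled point above 0.

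Rpl21 had the largest fall in KO-CAG organoids. It was at 176 and 156 CPM in WT and 55.6 and 60.1 CPM in KO, a log2 fold change of -1.51 (SE 0.09, adjusted p = 6.08e-06, edgeR). Rpl21 shares sequence with 40 other annotated genes, and with the counts of the 38 of them that the table holds added the fold change was -0.70 (adjusted p = 0.000347, edgeR). Rpl7a fell from 354 and 436 CPM to 182 and 161 CPM, a log2 fold change of -1.21 (adjusted p = 6.49e-05, edgeR), and by 0.95 on the log2 scale with the counts of its copies added (adjusted p = 0.000120, edgeR). Both rest on rows whose reads can be split between copies. Both genes passed in all 14 alternatives (adjusted p up to 0.0354 for Rpl21 and up to 0.0422 for Rpl7a).

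Rps12 fell most among small subunit genes, from 505 and 818 CPM to 345 and 377 CPM (-0.87, SE 0.18, adjusted p = 0.00484, edgeR). The WT libraries differed from each other here, and the fold change ran from -1.19 to -0.49 over 14 alternatives, 2 of which ended the call. Rps26, which lines the mRNA exit channel, was at 1344 and 1165 CPM in WT and 701 and 805 CPM in KO (-0.74, adjusted p = 0.000777, edgeR). Rps15a was at 824 and 752 CPM and 456 and 523 CPM (-0.69, adjusted p = 0.000769, edgeR). Of the genes described for the crypts, Rplp1, Rplp0, Rps15 and Rpsa fell here as well. Rplp1 went from 1607 and 1485 CPM to 1096 and 1222 CPM (-0.42, adjusted p = 0.00970, edgeR). Rplp0, Rps15 and Rpsa had log2 fold changes of -0.51, -0.60 and -0.50 (adjusted p = 0.00335, 0.00117 and 0.00340, edgeR). No KO library reached a WT library for any of these.

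Besides Rps27l, 12 tested members did not fall past the threshold in KO-CAG organoids. Of these, Rps27, Rpl38, Rps28, Rpl13a, Rpl19, Rps27rt, Rpl24 and Rps29 had log2 fold changes from -0.55 to -0.18 (adjusted p from 0.0514 to 0.662, edgeR). The others, with positive fold changes, were Rpl7l1, Rps19bp1, Rps27a and Rpl36al, at 0.16, 0.19, 0.25 and 0.36. Rps19bp1, which encodes a binding protein of Rps19, was at 31.5 and 32.4 CPM in WT and 37.7 and 35.2 CPM in KO. These members were named after their values were seen. Rps27a was at 305 and 260.0 CPM in WT and 448 and 228 CPM in KO, and KO replicate 1 alone lay above WT. Without that library its log2 fold change was -0.33 (adjusted p = 0.0117, edgeR), and without KO replicate 2 it was 0.66 (adjusted p = 0.000804), so its direction depended on which KO library was kept.

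Of the 83 members, 76 had a negative fold change in all 3 models, as did 25.5% of the 12478 genes tested in all 3. The 37 members called lower in the crypts were all among the 70 called lower in KO-CAG organoids, which is 100% of the crypt calls and 52.9% of the KO-CAG calls. Over all genes, 143 of the 344 called lower in crypts and tested in KO-CAG organoids were called lower there (41.6%). The size of the change did not go together closely from member to member. Across the 83 members Pearson's r of the log2 fold changes was -0.0021 between crypts and KO-IEC organoids, 0.22 between crypts and KO-CAG organoids and 0.24 between the organoid models. Across all genes tested in each pair it was 0.41, 0.40 and 0.24. Genes are not independent replicates, and these values are descriptions. Whether the effect of the deletion differed between models was tested by interaction contrasts, with the 16 libraries fitted together over 15585 genes. No member passed an adjusted p of 0.05 in any of the 3 pairs of models, where 0.00642% (crypts and KO-IEC organoids), 0.34% (crypts and KO-CAG organoids) and 0.379% (both organoid models) of all genes did. The counts at an unadjusted p under 0.05 were 6, 3 and 3 members. The median difference was 0.26 on the log2 scale from crypts to KO-IEC organoids, 0.01 from crypts to KO-CAG organoids and -0.27 from KO-IEC to KO-CAG organoids. DESeq2 was not run on these terms.

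Large and small subunit genes had similar median fold changes. In the crypts the median log2 fold change was -0.58 for the large subunit (20 of 49 called lower) and -0.53 for the small subunit (17 of 34). In KO-IEC organoids it was -0.32 and -0.29, and in KO-CAG organoids -0.55 (43 of 49 lower) and -0.57 (27 of 34 lower). Of all genes 2.66% were called lower in the crypts and 13.4% in KO-CAG organoids. The difference between the mean log2 CPM of the subunits within a library was -0.59 to -0.42 in WT crypts and -0.61 to -0.44 in KO crypts. In the organoids it was -0.14 and -0.07 in WT against -0.12 and -0.09 in KO-IEC, and -0.32 and -0.34 in WT against -0.43 and -0.37 in KO-CAG. The groups overlapped in the crypts and in the KO-IEC experiment and did not in the KO-CAG experiment. In the KO-CAG experiment both KO libraries also lay below both WT libraries for 34.2% of all genes. No score over members was tested.

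The paralogs are relatives of single ribosomal proteins, and some of them can replace or accompany those proteins. In 4 pairs both genes were tested. Rpl7l1 is a homologue of Rpl7, with 54.4% of the aligned coding bases identical. In the crypts Rpl7l1 was at 114, 126, 134 and 127 CPM in WT and 123, 111, 93.5 and 116 CPM in KO. Rpl7 was at 978, 999.6, 1015 and 1009 CPM in WT and 839, 705, 615 and 789.7 CPM in KO. The log2 ratio of Rpl7l1 to Rpl7 was -3.10, -2.99, -2.92 and -2.99 in WT crypts and -2.77, -2.66, -2.72 and -2.77 in KO crypts. The groups did not overlap, and the ratio was higher in KO by 0.27 (SD 0.07 in WT and 0.05 in KO, p = 0.0286 by an exact 2-sided permutation test). This is the smallest p that 4 against 4 libraries can give, and it was 0.114 when adjusted over the 4 pairs. In KO-CAG organoids the ratio was -3.50 and -3.39 in WT against -2.71 and -2.87 in KO. It overlapped in KO-IEC organoids, at -3.41 and -3.53 against -3.17 and -3.54. With 2 against 2 libraries the smallest p is 0.333, so the organoid ratios carry no test. In the KO-CAG fit, Rpl7 fell by 0.49 on the log2 scale (adjusted p = 0.00454, edgeR), while Rpl7l1, at 132 and 132 CPM in WT and 146 and 149 CPM in KO, did not pass (adjusted p = 0.147, edgeR).

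Rpl22l1 and Rpl22 had similar fold changes in each model. Rpl22 protein is known to repress Rpl22l1. Rpl22l1 was at 106, 118, 121 and 137 CPM in WT and 92.3, 90.8, 75.2 and 96.5 CPM in KO crypts (-0.44, SE 0.11, adjusted p = 0.0493, edgeR). This call was lost in 12 of 20 alternatives. Rpl22 had -0.50 (adjusted p = 0.0635, edgeR). In KO-CAG organoids Rpl22l1 fell from 199 and 192 CPM to 106 and 128 CPM (-0.74, adjusted p = 0.000456, edgeR) and Rpl22 from 591 and 535 CPM to 318 and 345 CPM (-0.76, adjusted p = 0.000291, edgeR). The log2 ratio of the pair differed between KO and WT by 0.08 (crypts, exact permutation p = 0.457), -0.01 (KO-IEC organoids) and 0.02 (KO-CAG organoids). The paralog made up 25.4% to 26.5% of the pair in all 6 groups.

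**Figure D4:**
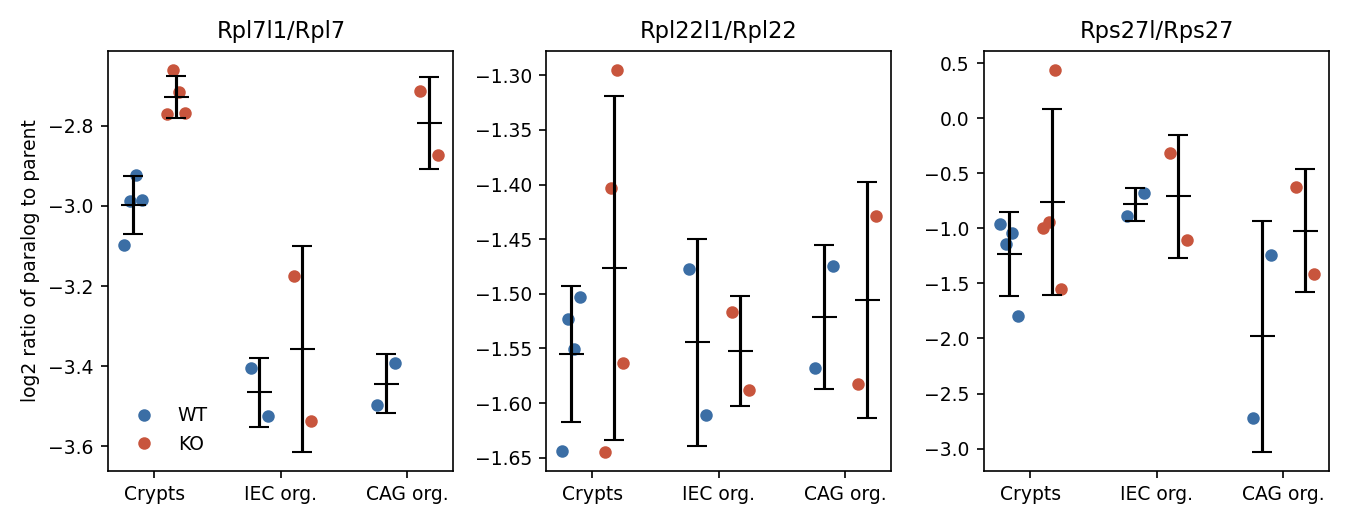
Log2 ratio of the CPM of 3 paralogs to their canonical relatives in each library (blue WT, red KO), with the mean and SD of each group as bars; the 3 vertical axes differ in range. For Rpl7l1 the KO points lie above WT in crypts and KO-CAG organoids, for Rpl22l1 and Rps27l the groups overlap in every model. The Rps27l ratio takes Rps27 without Rps27rt, and the counts of these 2 genes trade places between libraries.

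Rps27, Rps27rt and Rps27l form a family whose reads can be told apart only in part. The coding sequence of Rps27rt (chromosome 9 of GRCm38, 114982366 to 114982739) is identical over all 252 bases to that of Rps27 (chromosome 3, 90212522 to 90213651), and 98.4% of the 100-base windows of Rps27 occur in another gene. Rps27l (chromosome 9, 66946086 to 66949516) differs from it at 60 bases (76.2% identity), and none of its windows is shared. Both coding sequences are shown because the separation of the counts rests on them, with the bases of Rps27l that differ from Rps27 in capitals.
Rps27 and Rps27rt: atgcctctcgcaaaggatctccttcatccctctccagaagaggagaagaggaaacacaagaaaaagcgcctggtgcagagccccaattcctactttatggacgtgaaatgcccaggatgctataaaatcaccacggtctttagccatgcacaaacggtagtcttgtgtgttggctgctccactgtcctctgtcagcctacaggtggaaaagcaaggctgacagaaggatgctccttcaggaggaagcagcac
Rps27l: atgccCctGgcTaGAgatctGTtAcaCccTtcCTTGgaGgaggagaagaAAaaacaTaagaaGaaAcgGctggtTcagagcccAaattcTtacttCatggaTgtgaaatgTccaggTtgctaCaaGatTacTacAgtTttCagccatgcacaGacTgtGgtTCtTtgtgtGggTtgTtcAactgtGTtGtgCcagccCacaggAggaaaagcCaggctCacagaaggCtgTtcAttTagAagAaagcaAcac
Rps27l encodes a close relative of Rps27 and is known as a target gene of p53. In KO-CAG organoids it was at 151 and 145 CPM in WT and 218 and 215 CPM in KO. Both KO libraries lay above both WT libraries. The log2 fold change was 0.55 (SE 0.08, adjusted p = 0.000740, edgeR), and it passed in all 14 alternatives, with an adjusted p of 1.42e-07 to 0.0401 (edgeR and DESeq2). In the crypts Rps27l was at 209.6, 204, 208 and 224 CPM in WT and 205, 193, 172 and 192 CPM in KO (-0.15, adjusted p = 0.274, edgeR). It was at 149 and 156 CPM in WT and 138 and 112 CPM in KO-IEC organoids (-0.29, adjusted p = 0.856, edgeR). The effect in KO-CAG organoids exceeded that in the crypts by 0.69 (SE 0.15, adjusted p = 0.0724, edgeR interaction term) and that in KO-IEC organoids by 0.83 (SE 0.18, adjusted p = 0.0729). Both missed the threshold. With the replicate block no member passed either term (lowest adjusted p of any member 0.146 and 0.207, edgeR). With 1 crypt library left out, the difference from KO-IEC organoids passed only without KO replicate 3 (adjusted p = 0.0483, edgeR). The difference from the crypts passed in none of those fits. Without KO replicate 1 of the KO-IEC organoids the differences were 0.69 and 0.94. Without KO replicate 2 of those organoids the difference from the crypts was 0.69. Fits without an organoid library leave 1 library in a group, so no call is taken from them.

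Counts of Rps27 and Rps27rt traded places between libraries of the same group. In KO-CAG experiment WT organoids Rps27 was at 997 and 342 CPM and Rps27rt at 127 and 572 CPM, and in KO at 336 and 575 CPM and 380.4 and 156 CPM. Neither gene passed the test alone (adjusted p = 0.303 and 0.623, edgeR). The sum of both was 1124 and 914 CPM in WT against 716 and 732 CPM in KO, without overlap. As 1 row the sum had a log2 fold change of -0.50 (adjusted p = 0.00647, edgeR, within a range of 3.24e-08 to 0.695 for Rps27 over 14 alternatives). In the crypts the sums were 593, 645, 660 and 1019 CPM in WT and 576, 495, 412 and 740 CPM in KO, and they overlapped. WT replicate 4 had the highest Rps27 level there, 777 CPM, and KO replicate 3 the lowest, 127 CPM. The log2 ratio of Rps27l to Rps27 alone differed between KO and WT by 0.47 (crypts, exact permutation p = 0.343), 0.08 (KO-IEC organoids) and 0.96 (KO-CAG organoids). The groups overlapped in each model, and the trade of counts with Rps27rt enters this ratio.

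**Figure D5:**
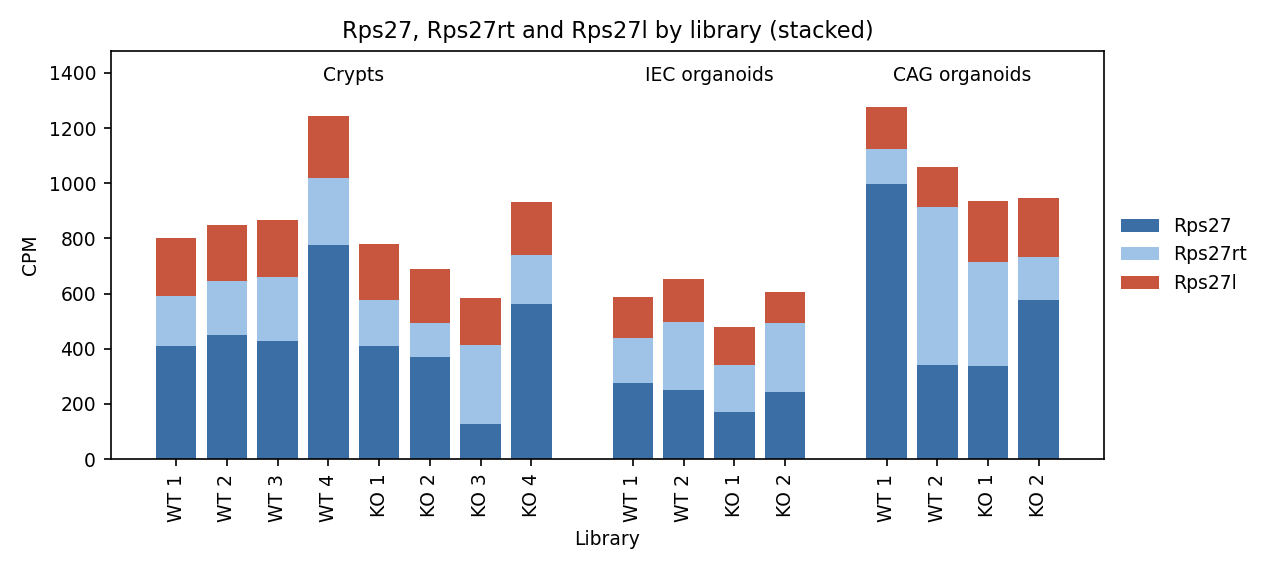
CPM of Rps27 (dark blue), its retrotransposed copy Rps27rt (light blue) and the paralog Rps27l (red), stacked for each of the 16 libraries. In the KO-CAG experiment the blue parts together fall from 1124 and 914 CPM in WT to 716 and 732 CPM in KO while the red part rises from 145 and 151 to 215 and 218 CPM.

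The last tested pair, Rpl36al and Rpl36a, rested on few reads. Rpl36al was at 0.674 to 3.76 CPM in all libraries, and its log2 ratio to Rpl36a differed between KO and WT by -0.20 (crypts, exact permutation p = 0.571), 0.65 (KO-IEC organoids) and 0.86 (KO-CAG organoids). A second gene, Gm49383, overlaps it on the same strand and is listed at 0 counts in the KO-IEC experiment. Rpl24 and Rpl13a, at 0.893, 0.752, 1.04 and 1.60 CPM and 55.3, 58.0, 56.9 and 47.8 CPM in WT crypts, overlap Gm28037 and Gm45713 in the same way, which are also listed at 0. Rps10 was at 471, 441, 456 and 446 CPM in WT crypts and 662 and 589 CPM in WT organoids of the KO-CAG experiment, but at 5.58 and 5.24 CPM in WT organoids of the KO-IEC experiment. Only the table of that experiment lists RPS10-NUDT3, a row that overlaps Rps10 on the same strand, at 0 counts. Levels of these 4 genes are therefore uncertain. Of the 86 members 76 share at least 1 window of 100 bases with another gene and 34 share at least 50% of them. The median log2 fold change was -0.50, -0.58 and -0.54 in the crypts for members with under 10%, 10 to 50% and at least 50% of windows shared, and -0.55, -0.57 and -0.56 in KO-CAG organoids.

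The tissue-restricted paralogs were not expressed to a level that could be tested. Rpl10l and Rpl39l are known from the testis and Rpl3l from muscle. Rpl10l had no count in any library, and 3 counts, the limit taken for a count of 0, correspond to 0.178 to 0.408 CPM. Rpl39l had 1 count in the 16 libraries, in KO crypt replicate 2. Rpl3l was at 0 to 0.305 CPM in the crypts, at 0 in the KO-IEC experiment and at 0.120 to 0.288 CPM in the KO-CAG experiment. The Rpl3l values are ranges over libraries, and the limit of 3 counts covers counting error only.

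Other genes of the translation machinery, from a list of mRNAs known for a TOP tract, had mostly negative fold changes. Of the 20 tested, all 20 had a negative fold change in the crypts, with 4 called lower and a median of -0.35 (2.66% of all genes were called lower and 51.1% were negative). Those 4 were Eef1b2 (-0.60), Eef1d (-0.58), Eef1g (-0.48) and Eif3k (-0.47), which are subunits of the elongation factor that recharges Eef1a1 and of the initiation factor eIF3. None of the 4 was called without WT replicate 1, 2 or 3 or without KO replicate 2 or 3. Without KO replicate 4 Eif3k alone of them was called (adjusted p = 0.0478, edgeR). Eef1b2, Eef1d and Eef1g were then at adjusted p = 0.0528, 0.0664 and 0.0686 (edgeR). In KO-IEC organoids none was called, none had an unadjusted p under 0.05, 19 were negative and the median was -0.21. In KO-CAG organoids 17 fell, where 13.4% of all genes did, and the median was -0.41. Eef1a1, which brings aminoacyl-tRNA to the ribosome, was at 10168 and 10956 CPM in WT and at 6636 and 7168 CPM in KO there (-0.61, adjusted p = 0.00101, edgeR). Among ribosomal proteins that the symbol rule leaves out, Rack1 was lower in crypts (-0.54, adjusted p = 0.0475, edgeR), a call that was lost in the same 5 fits (adjusted p = 0.102 to 0.133) and without KO replicate 4 (adjusted p = 0.0648). In the KO-CAG experiment it was lower as well (-0.60, adjusted p = 0.00130), as was Fau, a fusion of a ubiquitin-like protein with a small subunit protein (-0.37, adjusted p = 0.0120, edgeR).

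The list of 13 regulators did not move as 1 group. Its median log2 fold change was -0.02 (crypts), 0.09 (KO-IEC organoids) and 0.04 (KO-CAG organoids). Myc, which drives transcription of ribosomal genes, was at 190.1 and 202 CPM in WT and at 154 and 156 CPM in KO-CAG organoids (-0.34, adjusted p = 0.0105, edgeR). In KO-IEC organoids its log2 fold change was -1.12, with KO libraries at 33.4 and 87.4 CPM against 116 and 147 CPM in WT (adjusted p = 0.856, edgeR). The kinase gene Rps6ka3 also fell in KO-CAG organoids (-0.43, adjusted p = 0.00473, edgeR). Mtor, its partner Rptor and Larp1 passed the test in no model. Mdm2, the ubiquitin ligase of p53 to which free ribosomal proteins can bind, rose in crypts from 36.0 to 41.5 CPM in WT to 50.2 to 58.1 CPM in KO (0.43, adjusted p = 0.0406, edgeR). That call too was lost without WT replicate 1, 2 or 3 or without KO replicate 2 or 3 (adjusted p = 0.0907 to 0.128, edgeR). It rose in KO-CAG organoids from 47.0 and 52.3 CPM to 119 CPM in each KO library (1.26, adjusted p = 1.19e-05, edgeR), and Cdkn1a, a cell cycle inhibitor and p53 target, from 112 and 126 CPM to 320.4 and 385 CPM (1.57, adjusted p = 1.05e-05, edgeR). Trp53 itself, the gene of p53, did not pass in any model. In the crypts Cdkn1a had a log2 fold change of 0.98 (adjusted p = 0.0712, edgeR). In KO-IEC organoids Mdm2 and Cdkn1a had 0.22 and 0.16 and did not pass.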

How the data were processed

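RNA-seq counts of 16 libraries in 3 experiments were used. The authors deposited raw read counts per gene, made per the submitters' processing notes with HISAT2 2.0.5 and featureCounts 1.5.0-p3; the genome build, the strand setting and the treatment of reads that match several genes are not given in the sources used here. Gene positions and lengths came from the tables. Here edgeR 4.0.16 (R 4.3.3, limma 3.58.1) was run in each experiment on genes kept by filterByExpr, with TMM scaling, the quasi-likelihood F test and Benjamini-Hochberg adjustment over all tested genes. The threshold was an adjusted p under 0.05. CPM values are TMM-scaled, log2 CPM values used a prior count of 2, and the SE of a fold change was taken from it and its F statistic. DESeq2 1.42.0 was an alternative.

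Genes named in the text were, in each experiment, the 3 Rpl and 3 Rps members with the lowest and with the highest fold change, paralogs, members called higher, the 3 with the highest and lowest level per kilobase in WT, and members that failed the filter. Other members were named after their values were seen, and a few that the rule picks are not reported here. The members, lists and tests were chosen with earlier results of these data known. Shared sequence was found as windows of 100 bases of GENCODE M21 transcripts (GRCm38) that occur in another gene, and 76 of the 86 members lie at the positions of that annotation. The promoter windows came from RefSeq (GRCm38.p6). The limit taken for a count of 0 was 3 counts. The alternatives were other scaling, filters, tests and thresholds, a covariate or block, added counts of copies, and each library left out in turn.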

Additional observations from a re-analysis of the deposited data

Results flagged for a closer look

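Dixon's test was applied to 62 sets of 4 crypt values, and 4 stood apart from the rest of their group, where chance alone flags about 1 in 20. Rpl12 was at 41.9 CPM in WT replicate 1, against 717 to 786 CPM in the other WT crypts. It was at 522 CPM in KO replicate 4, against 25.5 to 41.4 CPM in the other KO crypts. Mitochondrial ribosomal RNA was at 23.4 CPM in that WT library and at 1078 CPM in that KO library. Its part in these values was not tested. WT replicate 4 was lowest in Rps12 with 293 CPM, against 418 to 439 CPM in the other WT crypts, and highest in Rps27 with 777 CPM, against 409.6 to 449.7 CPM. Rps12 and Rps27 share 88.9% and 98.4% of their windows of 100 bases with other genes.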

How the results depend on the processing

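Among the alternative values of counts and medians 156 stayed close to the main value and 22 moved. The 37 members lower in crypts became 66 by DESeq2's Wald test (7.05% of all genes called lower) and 61 with all 16 libraries in 1 fit (3.97%). At a minimum of 2-fold 0 remained, where 46 of the 13427 genes tested were called lower. The count was 0 with the covariate for mitochondrial ribosomal RNA and 0 with the enterocyte covariate (0.00745% of all genes in each). With 1 library left out it was 0 to 60 (0.00727% to 7.87% of all genes). In KO-IEC organoids 2 members passed without a low-count filter, where 0.477% of all genes were called lower. With 1 library left out 0 to 3 members passed. Each of these fits leaves 1 library in a group, so no conclusion is drawn from these counts. The fit that gave 3, without KO replicate 1, called a larger share of all genes lower than of the members. The 70 of KO-CAG organoids became 2 at a minimum of 2-fold, where 304 of the 13598 genes tested were called lower. They became 12 with all 16 libraries in 1 fit (1.24% of all genes). With 1 crypt library left out, the members whose effect differed numbered 0 for crypts against KO-CAG organoids. For KO-IEC against KO-CAG organoids they numbered 0 to 1. Fits without an organoid library leave 1 library in a group, so no conclusion is drawn from their counts. The direction of single members reversed in 6 cases, which were Rps12 in crypts with the enterocyte covariate (0.0017), Rps12 in KO-IEC organoids (-0.28 to 0.12 with 1 library left out, 0.011 without KO replicate 1), Rpl7l1 there (-0.30 to 0.050), Rps27 in KO-CAG organoids (-1.13 to 0.40) and Rps27a there (-0.33 to 0.66). The causes of these changes were not tested. Depth limits the precision of rare members, and Rpl24 and Rpl36al, which were under 10 CPM, had SEs of 0.28 to 0.66 on the log2 scale.

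The replicate numbers were checked for pairing by the correlation of deviations from the group means. In the crypts it was -0.04, 0.19, -0.40 and 0.43 for the same-numbered libraries and -0.47 to 0.49 for the others. In the organoids it was 0.34 (KO-IEC) and 0.067 (KO-CAG) for the same numbers and -0.34 and -0.067 for the others. With 2 libraries in a group these values can differ only in sign, so they cannot decide on pairing there. The numbers were not taken as pairs. With the replicate block the members lower in KO numbered 0 (crypts), 0 (KO-IEC organoids) and 74 (KO-CAG organoids). With the replicate block and a correction for gene length the median in KO-IEC organoids was -0.19.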
